A study of Homo sapiens with 2 samples.

Results

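MYC and MYB were followed in K562 cells, an established human line of chronic myeloid leukaemia with erythroid character, after 6 h with compounds that act on transcription or on chromatin. They are 2 of 57905 human gene lines in the count tables, were found by their symbols, and both were among the 10312 genes that passed the filter on low counts. The wells lay on 2 plates of 96 with the same layout. Every well held the same cells, and the groups were the 24 wells with DMSO, the solvent, and the wells of 74 other treatments. Of these treatments, 68 had 1 position per plate, 2 (GSK503 and IBET_762) had 2, and 4 (A485, ActD, AZ5576 and JQ1) had 3. A second reference was made of 8 wells with EtOH (another solvent), Ofloxacin (an antibiotic), EED226 or GSK126 (inhibitors of the Polycomb complex that methylates histone H3). Doses are not given, so compounds stand side by side and are not compared at matched strength. The duplicates of a treatment were technical and shared position and barcode, so every p-value measures only the spread between wells of 1 cell line in 1 experiment. Wells at the same position of both plates deviated together: over the 12 DMSO positions the correlation across 3864 genes of such deviations had a median of 0.267, against 0.0557 between different positions. The 2 wells of a position are thus not independent, and p-values over wells are too small. A second fit, chosen after the values were seen, summed the counts of both plates at each position and so took each position once; it is called the fit by position below.

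MYC encodes a basic helix-loop-helix transcription factor that pairs with MAX and drives ribosome production, metabolism and cell division. MYB encodes the c-Myb transcription factor of blood progenitors, which works through the coactivators CBP and p300 and falls as blood cells mature. Both genes depend on distal enhancers in leukaemia cells, and both messages are short-lived, so their mRNA levels can follow a change in synthesis within hours.

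The MYB promoter and pieces of the MYB 3′ UTR are shown because a promoter and AU-rich stretches are the parts of a gene through which synthesis and message stability are often set. The promoter, from 250 bases before to 50 bases after the RefSeq start (GRCh38.p14, chr6:135181058-135181357, plus strand), had a GC content of 71%. In it, capitals mark a GC box (GGGCGG), an E2F-type site (TTTGGCGG) and 2 matches to the MYB recognition element AACNG, both on the other strand. The capitals do not overlap.
MYB promoter: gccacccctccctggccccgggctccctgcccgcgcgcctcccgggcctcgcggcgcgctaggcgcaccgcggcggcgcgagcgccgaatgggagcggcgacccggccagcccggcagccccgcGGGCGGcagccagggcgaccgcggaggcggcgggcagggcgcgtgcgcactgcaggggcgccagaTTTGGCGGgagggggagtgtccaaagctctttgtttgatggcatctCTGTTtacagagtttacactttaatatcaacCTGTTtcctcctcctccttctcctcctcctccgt
Searched on both strands, the E2F-type letters occurred in 0.652% of 35116 promoter windows of the same length, the GC box in 45% and the MYB element in 77.2%. TATAAA, in 11.5% of windows, and CACGTG, the E box bound by MYC and MAX and found in 7.26%, had 0 matches here. A match of letters is a description and not a bound site.

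The MYB 3′ UTR of 1193 bases (GENCODE 29) held ATTTA, the core of AU-rich elements, 6 times. As many matches occurred in 22.2% of the 7995 tested genes with an annotated 3′ UTR, whose median was 2. Windows around 3 of the 6 are given in 5′ to 3′ direction with ATTTA in capitals, named by the first base of the window in the UTR.
MYB 3′ UTR base 130: agcaccaagtgcATTTAgttgaatgaagt
MYB 3′ UTR base 479: ttgtaaatgctcATTTAtggttaatgaca
MYB 3′ UTR base 606: ttttattcagtaATTTAattttgtaaatg

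Counts to human genes ran from 173553 to 1906446 per well, and counts to the ERCC spike-in RNAs from 56920 to 237950. The 4 erythroid transcription factors checked (GATA1, TAL1, KLF1 and NFE2) were all tested genes, with a summed level of 358 to 671 CPM (counts scaled to a common effective library size) in DMSO wells and of 86.9 to 1190 CPM in treated wells. The summed level of 3 B cell markers reached at most 13.2 CPM in any treated well, that of 3 monocyte markers 26.1 and that of 3 fibroblast markers 8.59. Summed T cell markers lay between 29.5 and 142 CPM in treated wells, with 1 of the 3 tested, and summed epithelial markers between 42.6 and 122, with KRT5 at 0. Their part in the results was not tested. In bulk wells, fewer cells and less RNA per cell cannot be told apart.

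In the 24 DMSO wells MYC had 23 to 112 counts, or 55.3 CPM at the lowest, a median of 109 and 143 at the highest (108 ± 19.9 CPM, SD, n = 24). The DMSO wells of plate 1 averaged 99.5 ± 18.6 CPM and those of plate 2 117 ± 17.8. MYB had 6 to 46 counts in the same wells, which was 22.6 to 60.8 CPM (35.1 ± 9.16, SD, n = 24). Such counts make single MYB wells imprecise: a level of 6 counts changes much with 1 or 2 reads. The 8 DMSO wells of the first plate column differed from the other 16 by 0.08 in log2 MYC (exact within-plate permutation p = 0.548) and by 0.24 in MYB (exact p = 0.098), neither past the threshold.

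Wells of the reference compounds held more MYC than DMSO wells. The EtOH wells had 213 and 160 CPM on plates 1 and 2, Ofloxacin 168 and 165, EED226 183 and 175, and GSK126 157 and 154. All 8 lay above the highest DMSO well, with a mean of 172 ± 19.1 CPM (SD, n = 8). In edgeR's quasi-likelihood fit, MYC was higher in them than in DMSO by 0.66 on the log2 scale (SE 0.07, adjusted p = 5.51e-13), in a comparison that called 2.82% of genes higher. MYB in these wells ran from 30.8 to 60.7 CPM, inside the DMSO range, with a mean of 43.4 ± 8.55 (SD, n = 8). Its difference from DMSO was 0.34 (SE 0.10, adjusted p = 0.0364). With plate 2 alone, the MYC difference was 0.47 and missed the threshold (adjusted p = 0.0962), as did MYB on either plate alone, with 0.27 and 0.42. By position the MYC difference stayed called (0.66, adjusted p = 0.000444) and that of MYB did not (0.34, adjusted p = 0.187). Which wells serve as the reference therefore bears on what is called higher. Every DMSO position but number 83 lay on the border of the plate, as did EtOH and Ofloxacin. EED226, GSK126 and most other treatments lay inside the border. The part of border position in these differences was not tested. Values below are against DMSO unless the reference compounds are named.

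**Figure D1:**
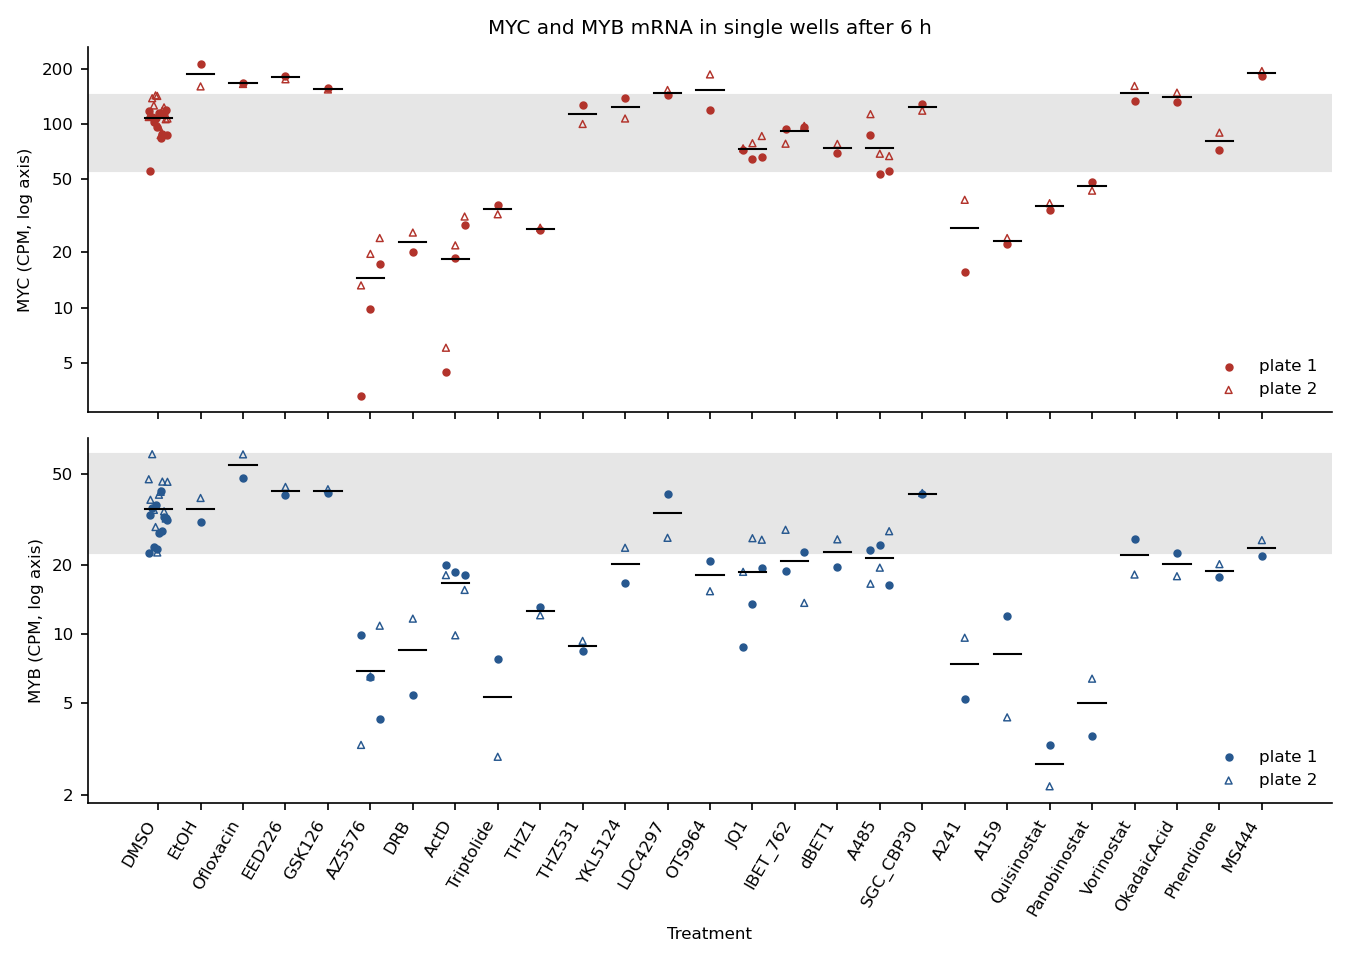
Normalised MYC (top) and MYB (bottom) in single wells, in CPM on log axes; filled circles are plate 1, open triangles plate 2, black bars group means, and the grey band spans the 24 DMSO wells. The 8 reference wells sit above the band for MYC and within it for MYB, and the CDK9 inhibitor AZ5576 lies below it for both.

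MYC was called in most treatments against DMSO and in few against the reference compounds. Against DMSO it was lower in 12 treatments, higher in 52 and not called in 10; over all genes and treatments, 2.55% of such tests were called lower and 2.64% higher. Against the reference compounds (2.1% lower, 1.97% higher over all) it was lower in 16 and higher in 0, and at an unadjusted p under 0.05 it was higher in 0 as well. The 52 higher calls included the 4 reference compounds themselves, each of which was set against the rest of that group. The 52 ran from 0.36 to 0.86 on the log2 scale, with a median of 0.64, and none of them was called against the reference compounds. The highest were UNC0631 (176 and 219 CPM, log2 0.86), JIB_04 (190 and 203, 0.85), SGC707 (196 and 187, 0.82), MI-3 (186 and 195, 0.80) and MS444 (183 and 194, 0.79). In these comparisons with DMSO the share of all genes called higher was 1.16% for UNC0631, 1.9% for JIB_04, 0.621% for SGC707, 1.26% for MI-3 and 0.756% for MS444. Over the 74 comparisons with DMSO, 5 of the 10312 genes (0.0485%), MYC included, were called higher in as many treatments as MYC, and the median gene in 1. In 45 treatments every well lay above the highest DMSO well. The comparisons share the same DMSO wells, so the 52 calls are not separate observations. The count of 52 was 32 with wells scaled by ERCC counts, 0 on plate 2 alone and 11 on plate 1 alone. By position it was 1, JIB_04 (0.84, adjusted p = 0.0257), with 54 at an unadjusted p under 0.05; over all genes and treatments that fit called 1.34% of tests higher and 1.41% lower.

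MYB was called less often upward. It was lower than in DMSO in 17 treatments and higher in 1, GSK_LSD1_2HCl, an LSD1 inhibitor, at 55.2 and 46.4 CPM (log2 0.61, adjusted p = 0.0388; 1.38% of genes called higher). That call was lost in 7 of the alternative analyses, single plates, ERCC scaling and the fit by position among them. Against the reference compounds MYB was lower in 20 treatments and higher in 0 (1 at an unadjusted p under 0.05). As many lower calls were made for 18 genes (0.175%) against DMSO and for 8 genes (0.0776%) against the reference compounds, MYB included; for MYC the numbers were 129 genes (1.25%) and 39 genes (0.378%). Every well lay below the lowest DMSO well in 12 treatments for MYB and in 9 for MYC.

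**Figure D2:**
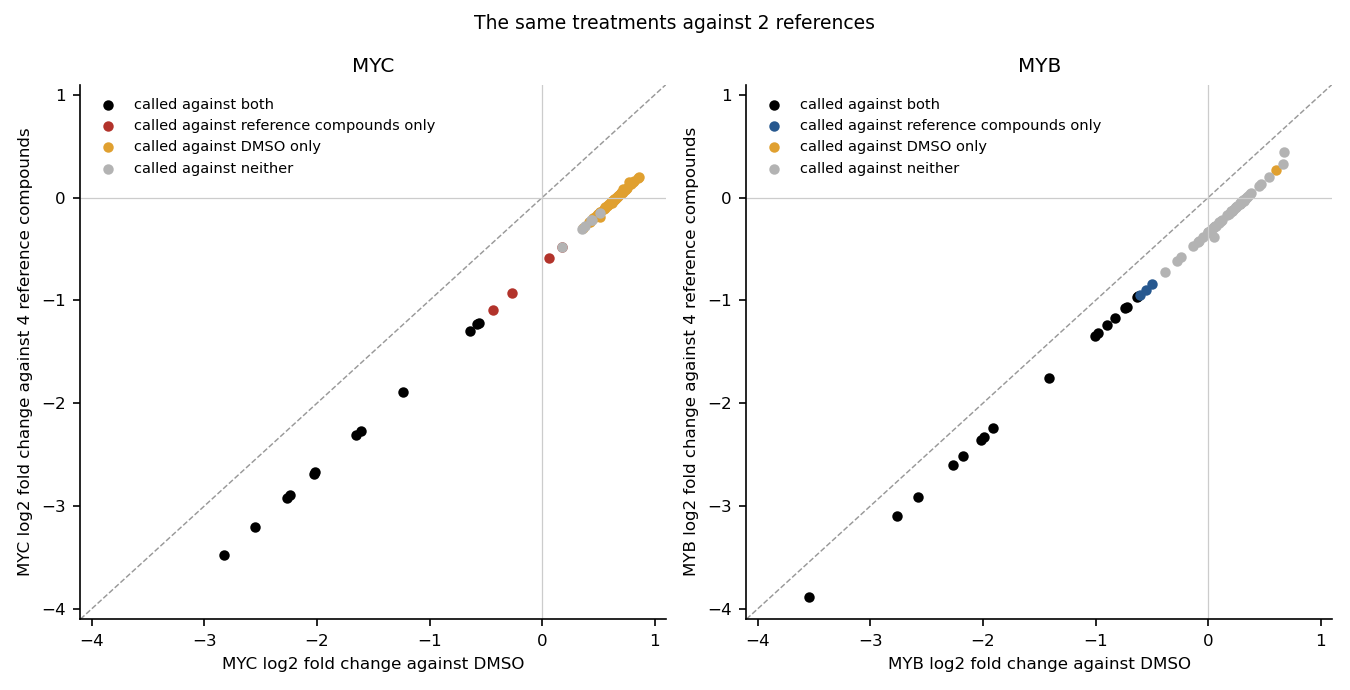
Log2 fold change of MYC (left) and MYB (right) for each of 74 treatments against DMSO (horizontal) and against the reference compounds (vertical), from the same fit, so that points follow a line offset from the dashed diagonal by construction. The offset of 0.66 for MYC puts the 52 treatments called higher against DMSO around 0 on the vertical axis, while the lower calls keep their side.

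Both mRNAs were lower in the same 11 treatments against DMSO: A159, A241, A485, ActD, AZ5576, DRB, JQ1, Panobinostat, Quisinostat, THZ1 and Triptolide. Against the reference compounds dBET1, IBET_762, Phendione, THZ531 and YKL5124 joined them, which made 16. MYB alone was lower against DMSO in IBET_762, Phendione, THZ531 and YKL5124. OkadaicAcid and OTS964 had MYC higher and MYB lower than DMSO over wells, and dBET1 had MYC alone lower. Against the reference compounds MYC was not called in OkadaicAcid (-0.295, adjusted p = 0.0817) or OTS964 (-0.16, adjusted p = 0.541). By position their MYC was not called against DMSO either (adjusted p = 0.139 and 0.134).

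The stronger falls held in the fit by position and several weaker ones did not. MYC was then lower than in DMSO in 10 of the 12 treatments, all but A485 (-0.61, adjusted p = 0.0524) and dBET1 (-0.56, adjusted p = 0.553). MYB was lower in 12 of the 17, without A485 (-0.64, adjusted p = 0.0766), IBET_762 (-0.63, adjusted p = 0.0779), OTS964 (-0.90, adjusted p = 0.0682), Phendione (-0.84, adjusted p = 0.068) and YKL5124 (-0.74, adjusted p = 0.189). Against the reference compounds (1.15% of tests lower and 1.01% higher) MYC was lower in 14 of the 16, without THZ531 (-0.56, adjusted p = 0.218) and YKL5124 (-0.48, adjusted p = 0.493). MYB was lower there in 17 of the 20, without dBET1 (-0.89, adjusted p = 0.194), MS444 (-0.84, adjusted p = 0.262) and Vorinostat (-0.92, adjusted p = 0.14). The sizes were nearly those of the fit over wells.

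Blockers of transcription gave the lowest MYC. AZ5576, a CDK9 inhibitor, had 1, 6 and 8 MYC counts on plate 1 and 4, 12 and 11 on plate 2, or 3.31 to 23.9 CPM with a mean of 14.5 ± 7.35 (SD, n = 6). No AZ5576 well reached the lowest DMSO well. MYC was lower by 2.82 than in DMSO on the log2 scale (log2 fold change -2.82, SE 0.25, adjusted p = 9.33e-32), where 28.6% of genes were called lower, and by 3.48 than in the reference compounds (-3.48; 21.9% lower). MYB was at 3.3 to 10.9 CPM in the same wells (6.91 ± 2.99, SD, n = 6), with log2 fold changes of -2.26 and -2.60. Lower calls were common in these comparisons, so the call alone did not set the members apart; by size of the fall against DMSO, MYC ranked 166 and MYB 398 of 10312 genes.

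ActD (actinomycin D), which blocks RNA polymerases by binding DNA, lowered both, with the larger log2 change for MYC. On plate 1 its wells had 4.45, 18.6 and 28.3 CPM of MYC, and on plate 2, in the same order of positions, 6.04, 21.8 and 31.3. The first position (number 21 on the plate) was lowest on both plates, while its MYB was among the highest ActD values, at 20 and 18.1 CPM against 9.9 to 18.6 at the other positions. MYC was at -2.55 (SE 0.22, adjusted p = 5.32e-31) and MYB at -1.01 (SE 0.20, adjusted p = 8.97e-07) against DMSO, with 25.2% of genes called lower. Without that position, mean MYC in ActD was 25 ± 5.82 CPM (SD, n = 4) in place of 18.4 ± 11.2 (n = 6). No label tells the positions apart, but position 21 lay in plate column 9 and the others in column 12, the last. In AZ5576 the position outside column 12 (number 11, column 11) also had the lowest MYC on both plates. It had 3.31 CPM against 9.83 and 17.2 on plate 1, and 13.2 against 19.6 and 23.9 on plate 2. What differs between the positions was not tested.

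The other general blockers lowered both mRNAs. DRB, a nucleoside analogue that inhibits elongation kinases, had 20 and 25.6 CPM of MYC and 5.46 and 11.7 of MYB, with log2 fold changes against DMSO of -2.26 and -2.02 (16.2% of genes lower). Triptolide, which targets the XPB subunit of TFIIH, had 36.3 and 32.2 CPM of MYC (-1.66, adjusted p = 8.45e-07; 6.23% lower). Its MYB, at 3 counts and 1 count, was at -2.58 with a 95% interval from -3.87 to -1.29. For THZ1, which inhibits CDK7 and also CDK12 and CDK13, MYC was 26.4 and 27.2 CPM and MYB 13.2 and 12.1 (-2.02 and -1.41; 6.71% lower). A159, known here only by its code, stood near DRB, with 22.1 and 23.9 CPM of MYC and 12 and 4.35 of MYB (-2.23 and -1.99; 12.3% lower).

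Among inhibitors with a narrower kinase target, the 2 mRNAs often had different values. THZ531, a CDK12 and CDK13 inhibitor, left MYC at 126 and 99.9 CPM, inside the DMSO range, with a log2 fold change of 0.06 (95% interval -0.32 to 0.45). MYB fell to 3 counts in each well (8.42 and 9.36 CPM), at -1.91 against DMSO (interval -2.96 to -0.85, adjusted p = 0.000438; 8.24% of genes lower). Against the reference compounds MYC was also called lower over wells but not by position, at -0.59 (adjusted p = 0.025; 6.22% lower), and MYB was at -2.25. With wells scaled by ERCC counts, MYC in THZ531 turned to -0.77 against DMSO (adjusted p = 0.00764).

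OTS964, a CDK11 inhibitor, had MYC at 119 and 186 CPM (0.50, adjusted p = 0.0129; 8.37% of genes higher) and MYB at 20.9 and 15.4 (-0.90, adjusted p = 0.0182; 8.91% lower). The MYC value turned to -0.27 and was not called under ERCC scaling (adjusted p = 0.205). Against the reference compounds MYC in OTS964 was at -0.16 and not called. Of the CDK7 inhibitors, YKL5124 had MYC at 139 and 107 CPM (0.18, not called against DMSO, and -0.48 against the reference compounds, adjusted p = 0.0225; 1.69% lower). Its MYB was 16.7 and 23.8 CPM (-0.74, adjusted p = 0.023; 1.83% lower). LDC4297, another CDK7 inhibitor, was called for neither: MYC stood at 0.44 (95% interval 0.18 to 0.70, adjusted p = 0.0721) and MYB at 0.02 (interval -0.37 to 0.42).

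Of the 11 histone deacetylase inhibitors, the broad ones Quisinostat and Panobinostat lowered both genes, with the larger log2 change for MYB. Quisinostat had 34 and 37 CPM of MYC (-1.61, adjusted p = 1.12e-13; 10.1% of genes lower). MYB was at 3 and 2 counts, 3.29 and 2.18 CPM, the lowest mean of any treatment, with a log2 fold change of -3.55 (interval -4.70 to -2.39, adjusted p = 4.13e-16). By size of the fall, MYB ranked 11 of 10312 genes there and MYC 221. Panobinostat had 48.2 and 43.3 CPM of MYC (-1.23; 8.55% lower) and 3.61 and 6.41 of MYB (-2.76, interval -3.74 to -1.78). Their values moved little under ERCC scaling, with MYC at -1.64 and -1.38 and MYB at -3.58 and -2.90.

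Vorinostat, also a broad inhibitor, had MYC at 133 and 161 CPM (0.43, not called). MYB was 26.1 and 18.2 CPM, -0.61 against DMSO (adjusted p = 0.303) and -0.94 against the reference compounds (adjusted p = 0.0407; 2.46% lower). The other 8 (MC1568, NexturastatA, PCI34051, PCI_34051, RGF966, RGFP966, Ricolintostat and TMP269), aimed at HDAC3, HDAC6, HDAC8 or class II enzymes, had MYC higher than in DMSO by 0.49 to 0.70, none of it called against the reference compounds. Their MYB lay between -0.13 and 0.31 against DMSO and was not called.

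BET bromodomain compounds, which act on readers of acetylated histones, were followed by moderate falls. JQ1 had 64.2 to 85.9 CPM of MYC (73.4 ± 7.97, SD, n = 6), all within the lower part of the DMSO range and below every reference well. MYC was at -0.57 against DMSO (SE 0.13, adjusted p = 0.000165; 7.8% of genes lower) and -1.23 against the reference compounds (8.83% lower). JQ1's MYB was 8.83 to 26.2 CPM (18.7 ± 6.79, SD, n = 6), at -0.98 and -1.32. The 4 JQ1 wells in the first plate column averaged 73.7 CPM of MYC and the other 2 72.9.

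IBET_762 had MYC at 78 to 97.5 CPM (91.3 ± 9.05, SD, n = 4), which was -0.27 against DMSO (adjusted p = 0.134) and -0.93 against the reference compounds (adjusted p = 2.06e-11; 4.37% lower). Its MYB ran from 13.7 to 28.5 CPM (-0.62, adjusted p = 0.00764; 2.46% lower). For dBET1, a BET degrader, MYC was 69.3 and 77.8 CPM (-0.56, adjusted p = 0.0224; 0.514% lower) and MYB 19.7 and 25.9 (-0.56, adjusted p = 0.0994). Few genes were called in that comparison, and against the reference compounds, with 0.436% of genes called lower, MYC was at -1.22 and MYB at -0.90 (adjusted p = 0.00366). The dBET1 call for MYC against DMSO was lost under ERCC scaling (-0.46, adjusted p = 0.308).

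The 2 compounds against CBP and p300 differed in what was called over wells. A485, which blocks their acetyltransferase activity, had 53.5 to 113 CPM of MYC with a median of 67.8 (74.1 ± 22.4, SD, n = 6). Of these wells 1 was below the lowest DMSO well and 1 above the DMSO mean, so the groups overlapped. MYC was at -0.64 against DMSO (adjusted p = 5.57e-05; 2.6% of genes lower) and -1.29 against the reference compounds (5.52% lower). MYB was at 16.4 to 28.1 CPM (21.4 ± 4.71, SD, n = 6), with -0.63 and -0.97. SGC_CBP30, which binds the bromodomains of the same proteins, had MYC at 128 and 118 CPM (0.18, interval -0.07 to 0.43) and MYB at 40.7 and 41.2 (0.28, interval -0.05 to 0.61). Neither passed the test, and the difference between the compounds was not tested because doses are unknown.

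A241, known by its code alone, had 15.6 and 38.6 CPM of MYC (-2.03, adjusted p = 2.68e-11) and 5.22 and 9.66 of MYB (-2.18, adjusted p = 2.63e-06). It called few genes lower (3.28%), and by size of the fall MYC ranked 139 and MYB 126 of 10312. For comparison, the MYC fall in DRB ranked 719 although it was of similar size (-2.26). Phendione had MYB lower over wells (17.7 and 20.2 CPM, -0.83, adjusted p = 0.00894; 3.03% lower), and its MYC was 71.9 and 89.6 CPM (-0.43, adjusted p = 0.0576). OkadaicAcid, a phosphatase inhibitor, had MYC at 132 and 148 CPM (0.36, adjusted p = 0.0188; 14.9% higher) and MYB at 22.6 and 17.9 (-0.72, adjusted p = 0.00449; 16.4% lower). Its MYC was at -0.295 against the reference compounds and not called. MS444, an inhibitor of the RNA-binding protein HuR, had MYB at 21.9 and 25.7 CPM, -0.84 against the reference compounds (adjusted p = 0.0165; 0.184% of genes lower) and -0.50 against DMSO (not called).

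**Figure D3:**
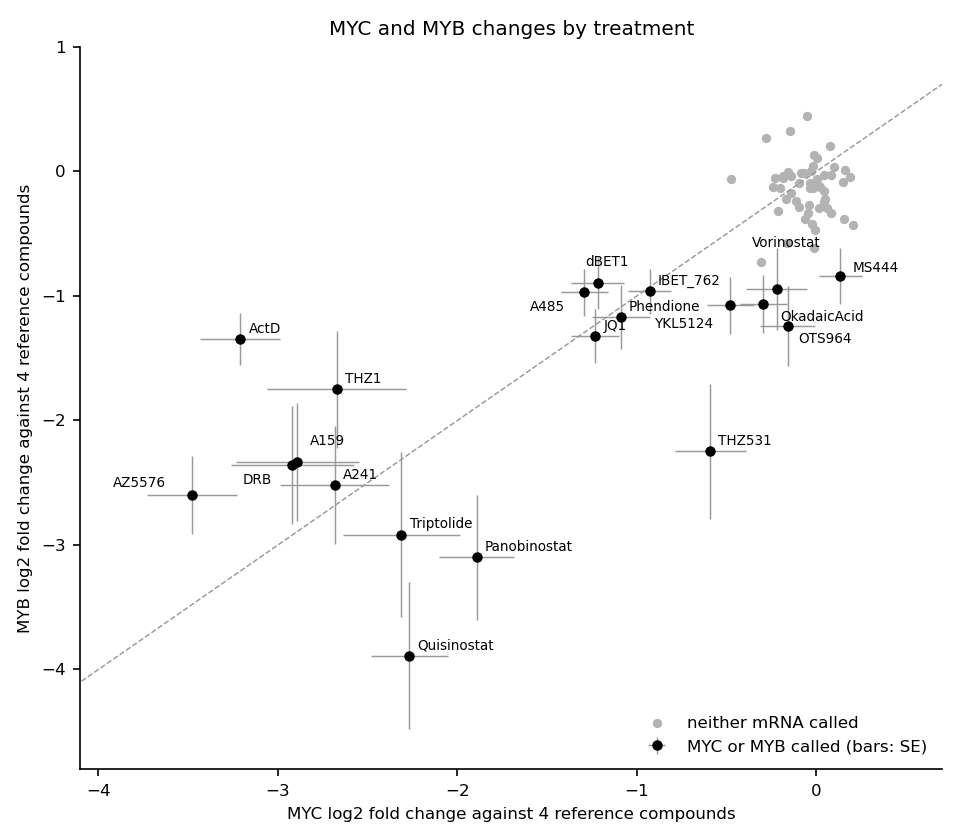
MYC (horizontal) and MYB (vertical) log2 fold changes against the reference compounds, one point per treatment, with standard errors where either mRNA was called; the dashed line marks equal change. THZ531, Quisinostat and Panobinostat lie below the line and ActD, THZ1 and AZ5576 above it.

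Whether the mRNAs moved unequally was tested on the ratio of their counts within a well, which does not depend on how wells are scaled. In DMSO the log2 ratio of MYC to MYB (0.5 added to each count) ran from 0.72 to 2.60 with a mean of 1.62. In the 8 reference wells it ran from 1.43 to 2.77 with a mean of 1.99. ActD was lower, with values from -1.93 to 1.06 and a difference of -1.74 (exact within-plate permutation of wells, two-sided, p = 9.66e-06, adjusted over 74 treatments 0.000715). Without position 21, left out after its values were seen, the difference was -0.96 (exact p = 0.000242). With wells as the unit, the ratio was higher in 8 treatments: Quisinostat by 1.86, THZ531 by 1.84, Panobinostat by 1.46, OTS964 by 1.37, MS444 by 1.34, OkadaicAcid by 1.15, Vorinostat by 1.06 and UNC0631 by 0.98.

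All 8 had an exact p of 0.00592, the smallest that 2 wells can give here, and an adjusted p of 0.0487. Because they are tied at that value, the loss of a single treatment from the tie ends all 8 calls: 0 were called with 1 added to each count or without the first-column DMSO wells. Both wells lay above the highest DMSO well in Quisinostat, THZ531, Panobinostat and MS444, and the other 4 overlapped it. The next lowest after ActD were AZ5576, by -0.75 (exact p = 0.0183, adjusted 0.0903), THZ1, by -0.62 (exact p = 0.0947), DRB and GSK_LSD1_2HCl. Against the reference compounds, where 2 wells cannot reach an exact p below 0.04, 0 treatments were called in either direction. There 7 had an unadjusted p under 0.05 (ActD, AZ5576, MS444, Panobinostat, Quisinostat, THZ1 and THZ531). The 8 higher ratios differed less from these wells than from DMSO. The differences were 1.49 in Quisinostat, 1.47 in THZ531, 1.08 in Panobinostat and 0.998 in OTS964. They were 0.969 in MS444, 0.777 in OkadaicAcid, 0.688 in Vorinostat and 0.608 in UNC0631. That of ActD was -2.11.

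These tests move the wells of each plate separately, although wells of 1 position deviated together. With the ratio averaged over the plates and positions permuted, a test added after the values were seen, 0 treatments were called after adjustment over 74, and 3 had an unadjusted p under 0.05. The 68 treatments with 1 position cannot go below an exact p of 0.0769 there, so the 8 higher ratios could not pass, and 3 positions cannot go below 0.0022. ActD reached that smallest value (exact p = 0.0022, adjusted 0.163), and AZ5576 had an exact p of 0.0198. The sizes of the differences are those given above, and what is called among them rests on wells as the unit.

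**Figure D4:**
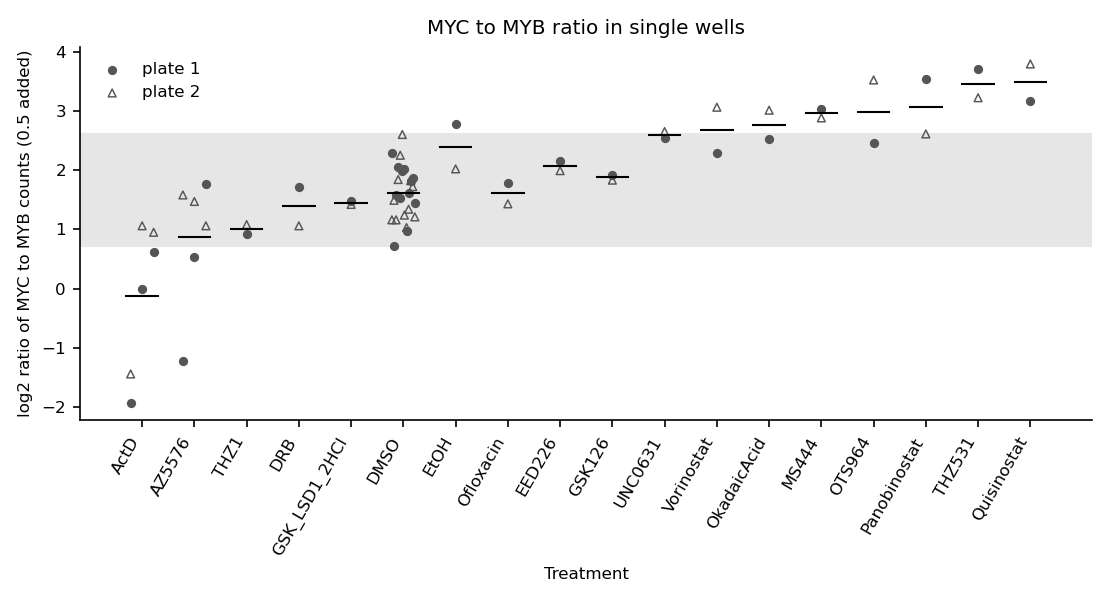
Log2 ratio of MYC to MYB counts per well for the lowest and highest treatments and the references; circles are plate 1, triangles plate 2, bars group means and the grey band the range of the DMSO wells. ActD has wells below the band, and both wells of Quisinostat, THZ531, Panobinostat and MS444 lie above it.

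The scaling of wells mattered most for the transcription blockers. With ERCC counts as the library size the median of all genes moved by -0.93 in ActD, -0.74 in AZ5576, -0.82 in THZ531 and -0.76 in OTS964, and by -0.03 in Quisinostat. MYC then stood at -3.48 in ActD and -3.56 in AZ5576 against DMSO, and MYB at -1.94 and -2.99. Relative to that shift the members kept nearly the values given above.

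**Figure D5:**
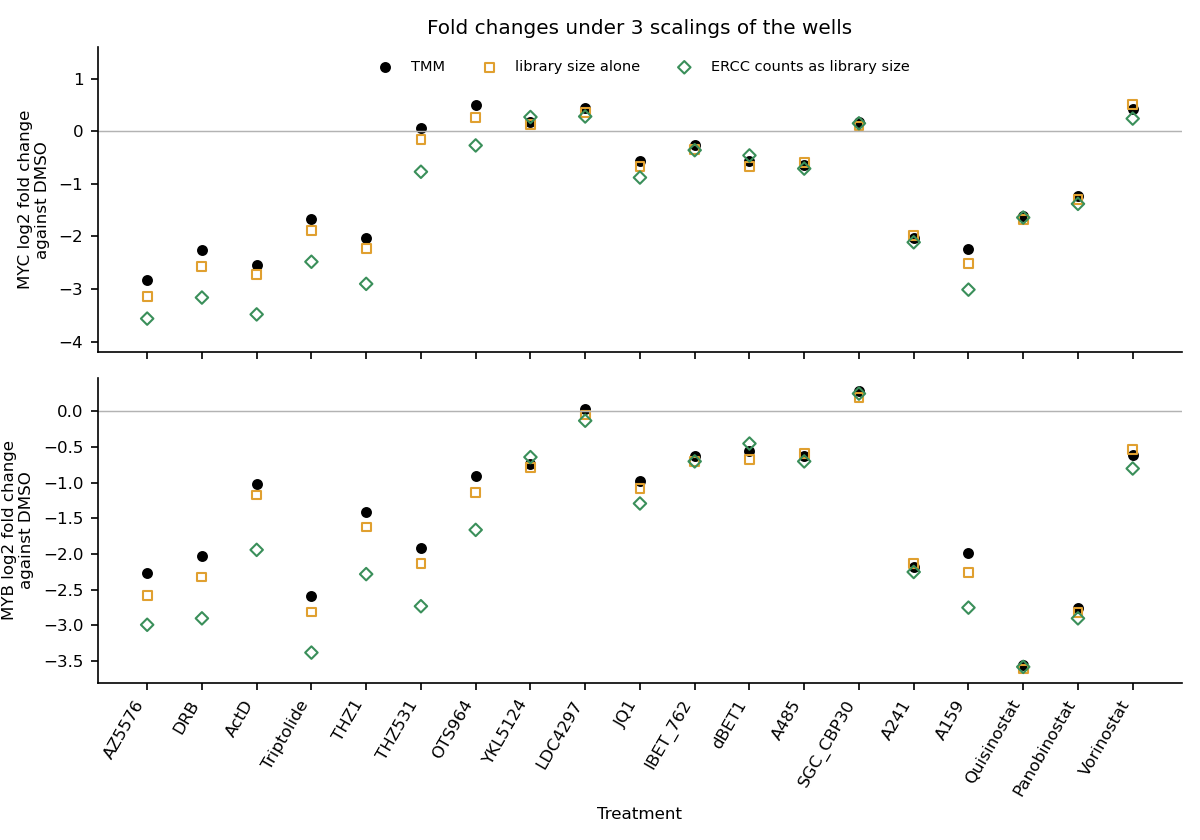
Log2 fold changes of MYC (top) and MYB (bottom) against DMSO with wells scaled by TMM (filled circles), by library size alone (squares) and by ERCC counts (diamonds). The 3 scalings lie close together for Quisinostat, A485 and A241, and the ERCC values are lower for the transcription blockers; MYC in THZ531 and OTS964 changes sign.

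Ordered by mean level, MYC ran from 14.5 CPM in AZ5576 through ActD (18.4), DRB (22.8), A159 (23), THZ1 (26.8), A241 (27.1), Triptolide (34.3), Quisinostat (35.5) and Panobinostat (45.7) to JQ1 (73.4), and up to 198 in UNC0631. MYB began with Quisinostat (2.73), Panobinostat (5.01), Triptolide (5.36), AZ5576 (6.91) and A241 (7.44) and ended at 54.4 in Ofloxacin. Neighbours in the order mostly could not be told apart: the wells of 69 of 73 neighbouring pairs overlapped for MYC and of 71 of 73 for MYB.

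Across the 74 treatments and DMSO, mean log2 CPM of MYC and MYB had a Pearson r of 0.837. Over the 66 left without the 9 treatments lowest in mean MYC, picked from these same data, it was 0.601. The genes most like MYC among 3863 well-measured genes were GATA2 (r 0.938), a transcription factor of blood progenitors, PIM1 (0.892), a kinase, ZFP36L2 (0.887), which binds AU-rich elements, and the erythroid factors KLF1 (0.883) and NFE2 (0.882). Those most like MYB were NFE2 (0.92), GFI1B (0.883), KLF1 (0.882), LYL1 (0.881) and YDJC (0.88). These values describe 75 means that share plates and depth, and the strongest treatments weigh heavily in them.

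PVT1, a long noncoding RNA whose gene neighbours MYC, was higher relative to the other mRNAs of the well in the treatments with the lowest MYC, AZ5576 and ActD. It was singled out after its values were seen. In DMSO it had 196 to 414 CPM (330 ± 65.9, SD, n = 24), in AZ5576 560 to 684 (617 ± 53.5, SD, n = 6) and in ActD 530 to 682 (616 ± 49.9, SD, n = 6), with no overlap with DMSO. PVT1 was higher than in DMSO by 0.84 in both (adjusted p = 1.59e-21 and 4e-22), where 19.4% and 18.7% of genes were called higher. In all it was higher in 15 of 74 treatments and lower in 0 (2.64% and 2.55% of all tests). The reference wells also had more PVT1 than DMSO over wells, though not by position (0.23, adjusted p = 0.0125). Against the reference compounds PVT1 was higher in 7 treatments, AZ5576 (0.61) and ActD (0.60) among them (1.97% of all tests). It was lower in 4 (2.1% of all tests): A241 (-0.58, adjusted p = 0.00167), A485 (-0.43, adjusted p = 0.000439), JIB_04 (-0.46, adjusted p = 0.0336) and JQ1 (-0.33, adjusted p = 0.0064). MYC was lower too in A241, A485 and JQ1. Of the 6 wells each of A485 and JQ1, 4 lay in the first plate column, where no reference well lay. Their PVT1 ran from 229 to 395 CPM in A485 and from 210 to 414 in JQ1. The part of plate column in these lower values was not tested. By position, 7 treatments were higher than DMSO (1.34% of all tests), and 3 were higher and 0 lower than the reference compounds (1.01% and 1.15%).

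The direction of PVT1 depended on scaling. Under ERCC scaling its values against DMSO were 0.07 in AZ5576 and -0.12 in ActD, neither called, and -0.38 in JQ1 (adjusted p = 0.0438). With the reference compounds as the comparison they were -0.26 in AZ5576 (adjusted p = 0.0695), -0.45 in ActD (adjusted p = 0.00152) and -0.71 in JQ1 (adjusted p = 0.000229). Of the other neighbours tested, AHI1, next to MYB, was lower in AZ5576 over wells (-0.89, adjusted p = 0.0148; 0.0588 by position) and HBS1L was not called there (0.20).

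MAX network genes, which encode MAX and proteins that pair with it or with MLX, had their most lower calls under AZ5576 and ActD. Of 11 listed, 8 were tested, and in AZ5576 5 were lower and 0 higher than in DMSO, where 28.6% and 19.4% of all genes were, with a median of -0.76 against -0.14 for all genes. Lower calls numbered 4 in ActD (25.2% of all genes lower), 2 in DRB (16.2%) and 2 in OTS964 (8.91%). There was 1 in Triptolide (6.23%) and 0 in THZ1 (6.71%) and THZ531 (8.24%). AZ5576 and ActD had 6 wells each and these others 2. List medians were -0.659 in ActD, -0.781 in DRB, -0.391 in OTS964, -0.481 in Triptolide, -0.705 in THZ1 and -0.503 in THZ531. The number of calls thus did not follow the size of the changes. The 5 lower in AZ5576 were MLX (-0.99), MXD3 (-1.42), MLXIP (-0.80), MGA (-2.02) and MAX (-0.44, not called by position). In ActD MAX was higher (0.41, adjusted p = 0.011; 18.7% of genes higher), but under ERCC scaling MAX turned to -0.53 there and 7 of 8 were lower, as were 91.1% of all genes. In Quisinostat 2 rose, MXD3 (1.37, adjusted p = 1.05e-07) and MXD1 (1.77, adjusted p = 4.47e-06), both antagonists of MYC, and 0 fell (11.2% of all genes were called higher and 10.1% lower), with the same counts under ERCC scaling. MYB's coactivator CREBBP, which encodes CBP, was lower in AZ5576 (-1.87) and, over wells only, in Quisinostat (-1.57, adjusted p = 0.0238), and its relative MYBL2 was not called in either (-0.20 and -0.02).

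Known MYC target genes went both ways in AZ5576 when wells were scaled by TMM. Of 44 listed, 42 were tested. In AZ5576 11 were lower and 15 higher than in DMSO, with a median of 0.06 against -0.14 for all genes; the lower count was near the share of all genes (28.6% lower, 19.4% higher). The nucleoside diphosphate kinase NME1 (0.59) and lactate dehydrogenase LDHA (0.52) were higher there, and the nucleolar genes NOP16 (-0.73) and PPAN (-2.28) lower. Under ERCC scaling, 38 of the 42 were lower in AZ5576 and 0 higher, and NME1 and LDHA turned to -0.18 and -0.24. The same scaling called 81.2% of all genes lower there, with a median of -0.87 over all genes and of -0.69 over the targets, so that count says little about the targets.

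In A485 6 targets were lower than in DMSO and 0 higher, against 2.6% and 2.11% of all genes. The count against the reference compounds was 11 lower and 0 higher (5.52% of all genes lower), led by NOP16 (-0.86), RCL1 (-1.31), the transferrin receptor gene TFRC (-0.66) and the amino acid transporter gene SLC7A5 (-0.83). By position the lower counts in A485 were 1 against DMSO (0.892% of all genes) and 4 against the reference compounds (2.14%), with TFRC no longer called. A241 had 7 lower and 0 higher against DMSO (3.28% and 2.02% of all genes), and 2 lower by position (1.18%). YKL5124, whose MYC was not called against DMSO (0.18), had 6 lower and 0 higher (1.83% and 1.24% of all genes). By position 0 were lower in YKL5124 (0.272%). Against the reference compounds, MYC in YKL5124 was lower over wells (-0.48, adjusted p = 0.0225) but not by position. There 5 targets were lower and 0 higher (1.69% and 0.873% of all genes), and 2 were lower by position (0.359%). ERCC scaling left 4 lower in A485 (1.16% of all genes) and 3 in A241 (1.44%) against DMSO.

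In JQ1 9 targets were lower and 4 higher (7.8% and 7.18% of all genes), with NOP16 at -0.69 and the polyamine enzyme gene ODC1 at 0.60. By position 3 were lower and 3 higher (4.21% and 4.48%), and under ERCC scaling 19 were lower and 0 higher, where 24.1% of all genes were lower. In Quisinostat 11 were lower, NOP16 among them (-0.85), and 2 higher, RRP9 (0.96) and ODC1 (0.59), against 10.1% and 11.2% of all genes. The counts in Quisinostat were 9 and 2 under ERCC scaling (7.49% and 7.99% of all genes).

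Of 16 listed MYB target genes, 7 were tested. Against DMSO, 4 were lower and 0 higher in AZ5576 (28.6% and 19.4% of all genes), and 3 and 0 in THZ531 (8.24% and 7.11%). Quisinostat had 3 and 1 (10.1% and 11.2%) and JQ1 1 and 2 (7.8% and 7.18%). By position the counts were 3 and 0 in AZ5576 (24.1% and 17.6%) and 2 and 0 in THZ531 (4.03% and 3.27%). They were 1 and 0 in Quisinostat (5.11% and 7.69%) and 1 and 2 in JQ1 (4.21% and 4.48%). LMO2, a haematopoietic transcription cofactor, was lower in JQ1 (-2.25, adjusted p = 2.69e-07, and -3.55 against the reference compounds), in THZ531 (-3.52, SE 1.5, adjusted p = 0.00186) and in Quisinostat (-1.61, adjusted p = 0.000548). MAT2A, which makes S-adenosylmethionine, was lower in AZ5576 (-1.54) and THZ531 (-2.11) and higher in JQ1 (0.72), as was the chaperone gene HSPA8 in JQ1 (0.96). Like MYC, LMO2 was higher in the reference wells than in DMSO, by 1.30 (adjusted p = 2.01e-15), and so was NOP16, by 0.37 (adjusted p = 3.02e-09).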

How the data were processed

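The deposited values are gene-level read counts of MAC-seq, a plate method in which reverse transcription gives each well a barcode and 3′ ends of pooled wells are sequenced. The deposited tables carry the unit expected counts (estimated counts, not normalized) only because some of 6 summary lines, left out, are fractional. The values used here were whole: all 57905 human gene lines and 92 ERCC lines hold whole counts. Copies made by amplification may count more than once. The tools named are cutadapt 2.1, R 4.0.2, FastQC 0.11.6 and bcl2fastq 2.17.1.14, and the build is GRCh37 (hg19), per the submitters' processing notes. Aligner, counter and annotation: not given in the sources used here. Printed sequences come from another build, GRCh38. A deposited annotation names each well's treatment, with no dose.

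Counts were fitted in R 4.3.3 with edgeR 4.0.16 (filterByExpr, TMM, glmQLFit) as 1 model of treatment plus plate over 192 wells, with Benjamini-Hochberg adjustment over 10312 genes in each comparison and a threshold of 0.05. Each treatment was compared with DMSO and with the mean of the 4 reference compounds, itself left out. Null fits used a faster solver of the same likelihood, which was checked against edgeR's own test on 302 genes in 3 comparisons and called the same numbers. CPM use TMM-scaled library sizes. The ratio test permuted wells within plates exactly. Added after the values were seen, a second fit summed both plates per position (1 value per position, no plate term, the same 10312 genes), and a second ratio test permuted positions; same-position wells correlated above 0.1 at 12 of 12 DMSO positions and at 0 of 3 in ActD. Intervals are nominal, from the fit's standard errors. Tested on simulated counts with 200 changed among 10312 genes, a comparison shaped like THZ531's recovered 38% of 2-fold and 63% of 4-fold changes with 6 false calls, and a comparison shaped like AZ5576's recovered 71% and 93% with 11. The simulated wells were drawn independently, without the shared deviation of wells at 1 position. The false calls therefore do not measure the error rate over real wells.

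Treatments named were, for each gene, the 8 lowest and 5 highest called, all compounds of the listed target classes, the references, and the 5 extremes of the ratio at each end; list genes were those with the lowest adjusted p. OkadaicAcid, Phendione, MS444 and A159 were also described for their MYB or shared calls. Classes were assigned after compound names were seen, and members and lists were chosen with earlier results of these data known. Alternatives were other scalings, no filter, single plates (replicate 1 is plate 1), no plate term and other sets of DMSO wells. Of the listed erythroid markers, only the transcription factors were summed, a choice made after the values were seen; the others are not reported here.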

Additional observations from a re-analysis of the deposited data

How the results depend on the processing

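The 12 and 16 treatments with lower MYC ranged from 8 to 14 and from 12 to 18 over the alternatives, and no lower call of either gene changed direction. MYC higher than DMSO in 52 treatments became 32 with ERCC counts as library size, 0 to 11 on single plates and 1 by position; against the reference compounds 0 became 1 with ERCC counts. MYB lower than DMSO in 17 became 10 with no filter on low counts and 6 to 7 on single plates, and 20 against the reference compounds became 11 on each. MYB higher than DMSO in 1 became 3 with ERCC counts, 2 without first-column DMSO wells or with DMSO matched by column, and 0 with library size alone, with no filter, without a plate term, by position and on single plates.

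For the reference compounds against DMSO, MYC ranged from 0.47 (adjusted p = 0.0962, plate 2) to 0.85 on single plates, and MYB was not called with DESeq2's size factors (0.32), library size alone (0.30), no filter (0.35), positions as the unit (0.34) or single plates (0.27 to 0.42). The ratio was higher in 0 treatments, in place of 8, with 1 added to each count, without first-column DMSO wells, with positions permuted, on single plates and against the reference compounds; it was lower in 0, in place of 1, with positions permuted, on single plates and against the reference compounds, which allow few arrangements. With ERCC counts the sign turned for MYC in THZ531 (-0.77) and OTS964 (-0.27) against DMSO and in Ricolintostat against the reference compounds (0.37, adjusted p = 0.0219). Except where fewer wells or positions or a tie shows it, the cause was not tested. The planned DESeq2 Wald test was not run. Replicates 1 and 2 are the plates, which were a term of the model; wells of 1 position were paired across plates only in the analyses by position. No well exceeded 10 MYB counts in 11 of the 17 treatments where MYB was lower than in DMSO, which limits its precision more than that of MYC.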

Other observations

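Some names in the annotation differ by a single character and sat at different positions. PCI34051 and PCI_34051 gave MYC at 178 and 171 CPM and at 174 and 168 CPM, and MYB at 47.6 and 31.2 CPM and at 32.3 and 29.2 CPM. RGFP966 and RGF966 gave MYC at 170 and 184 CPM and at 192 and 151 CPM, and MYB at 45.6 and 38.3 CPM and at 39.9 and 39.9 CPM. Whether each pair is the same compound is not stated. Wells of each pair overlapped for both genes, and MYC was called higher than in DMSO under all 4 names and MYB under none.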
